A study of Mus musculus with 16 samples.

Results

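The surface mucous cell genes described here are Gkn1, Gkn2, Tff1, Muc5ac and Muc1, products of the cells that line the stomach lumen and its pits. The rule takes the members by gene symbol, and all 5 were found among the 24964 gene symbols of the count table. RNA sequencing was done on 16 libraries of mouse stomach, 4 in each of 4 groups. Every library came from a 4 mm biopsy of the corpus, taken at the lesser curvature, and all mice were females 8 weeks old. The WT-S and WT-A groups were wild-type C57BL/6 mice, and the TTP-S and TTP-A groups were congenic C57BL/6 mice of the genotype TTPΔARE. TTP is tristetraprolin, the product of Zfp36, an RNA-binding protein that targets messages with AU-rich elements for decay, and ΔARE denotes deletion of such an element. The treatment label of both A groups is gastric inflammation induced by adrenalectomy, the surgical removal of the adrenal glands. The treatment label of both S groups names spasmolytic polypeptide-expressing metaplasia (SPEM). The labels do not say what was done to the S mice, and S serves below as a group name alone.

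Surface mucous cells, also called foveolar or pit cells, are renewed from progenitors in the upper gland and move towards the lumen. They secrete the gel-forming mucin Muc5ac, the trefoil peptide Tff1 and the gastrokines Gkn1 and Gkn2, which together cover and protect the epithelium from acid. Mucous neck cells deeper in the gland, and SPEM cells, make a different gel-forming mucin, Muc6, with the trefoil peptide Tff2. Muc1 is a mucin anchored in the apical membrane and is made by many epithelial cells besides surface mucous cells.

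Library totals ranged from 17453930 to 25849472 counts, and 15385 genes passed the filter on low counts, the 5 members among them. Zfp36 was at 55.1 to 88.6 CPM (each gene's counts relative to the scaled library total, times 1e6) in the 8 WT libraries and at 110 to 131 CPM in the 8 TTPΔARE libraries, without overlap. A pair of WT-A libraries, numbers 3 and 4, showed a trend with transcript GC content: genes rich in GC lay above their median over libraries and genes poor in GC below it (Spearman rho across genes 0.713 and 0.736, against at most 0.298 in size in the other 14 libraries). The pair holds WT-A only, which allows no test inside it. The pairwise fold changes and calls of members that rest on WT-A are also given from the other 14 libraries. For other genes this is done for some calls only. Members had a transcript GC content of 45.4% (Gkn2) to 54.2% (Muc1), around the median of 49.9% over the genes used for this check. Of the antral markers Gast was at 0 to 7 counts per library and Pdx1 at 1.62 to 6.21 CPM (35 to 180 counts), with every WT-A library above every WT-S library (log2 0.88, edgeR adjusted p = 0.0519). The 5 intestinal markers summed to 3.10 to 13.1 CPM, and of the 3 tested 1, Alpi, was called higher in WT-A against WT-S. Squamous markers of the forestomach, all 10 of them detected, summed to 1.57 to 779 CPM and varied within every group.

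The members were among the most abundant transcripts of the corpus. By mean CPM over all libraries Gkn1 ranked 3rd, Gkn2 4th, Tff1 8th, Muc5ac 11th and Muc1 40th of 24964 genes. Together they made up 5.54% ± 0.300 of all WT-S counts and 5.60% ± 0.179 of those of TTP-S (SD, n = 4). In the A groups this share was 4.87% ± 0.473 for WT mice and 4.12% ± 0.850 for TTPΔARE mice. TTP-A had the widest range, from 3.32% to 5.30%. Per kilobase of the longest annotated transcript the order differed, because Gkn2 is short and Muc5ac is very long. On that scale Gkn2 led WT-S at 23620 ± 2397 CPM per kilobase, above Gkn1 at 18337 ± 199 and Tff1 at 12608 ± 731. Muc1 (628 ± 58.3) and Muc5ac (503 ± 148) were far lower in WT-S, and their library ranges overlapped. In TTP-S Muc5ac stood at 697 ± 92.6 and Muc1 at 608 ± 42.6 CPM per kilobase, also with overlapping ranges.

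**Figure D1:**
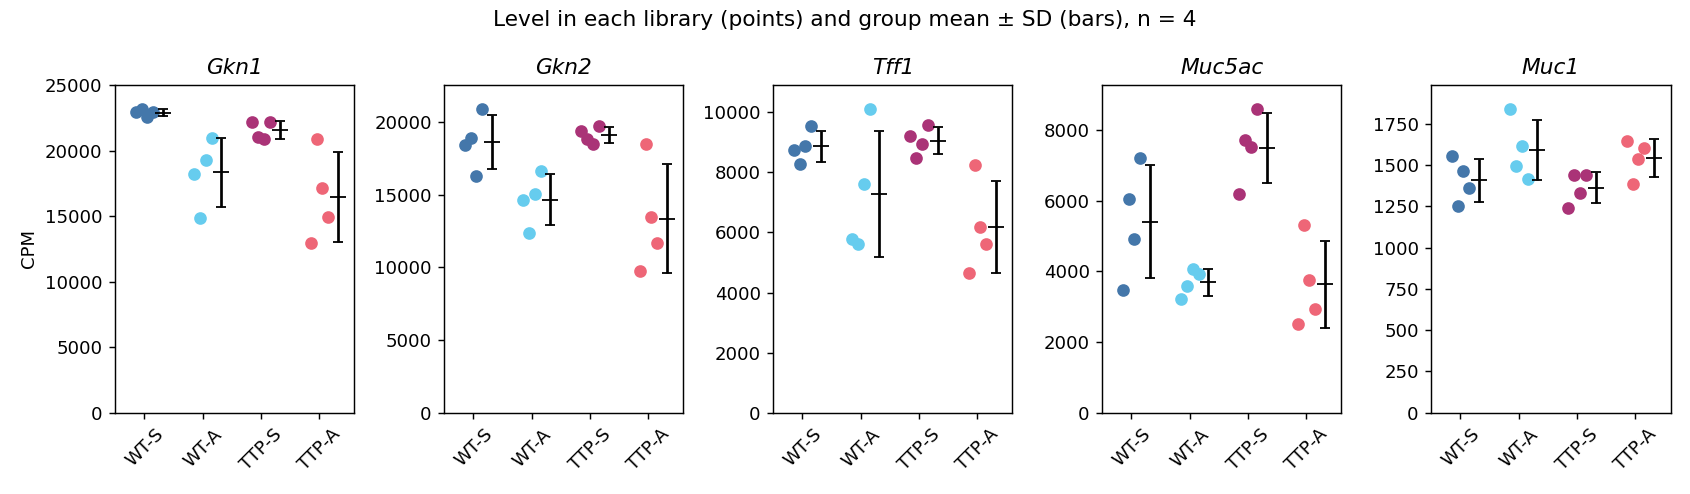
Level of each surface mucous gene in every library, in CPM on axes that start at 0, with points for libraries and bars for the group mean and SD (n = 4). Gkn1, Gkn2, Tff1 and Muc5ac lie lower in every TTP-A library than in any TTP-S library, and Muc1 overlaps between all groups.

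Condition A went with lower values of the 4 secreted products and a slightly higher value of Muc1 in both genotypes, but only the fall of Muc5ac in TTPΔARE mice passed the test. With edgeR's quasi-likelihood test and Benjamini-Hochberg adjustment over all genes, 0 of 5 members were called (adjusted p under 0.05) between WT-A and WT-S, where 18.8% of all genes were called. The unadjusted p was under 0.05 for 3 of them, and the DESeq2 Wald test called 2 lower (22.9% of all genes with an adjusted p in either direction) and limma voom 3 lower (19.5%). Between TTP-A and TTP-S, 1 of 5 members was called, Muc5ac, where 1.35% of all genes were called lower and 2.90% in either direction. DESeq2 called 4 lower, where it called 5.84% of genes in either direction, and voom 4 lower and Muc1 higher, where it called 15.2%. The member median was a log2 of -0.32 in WT mice and -0.52 in TTPΔARE mice, against medians over all genes of 0.0094 and -0.0010. In WT mice 1 member had groups that did not overlap, Gkn1, against 8.48% of all genes that were lower without overlap. In TTPΔARE mice 4 members did, against 6.77% of all genes. The signs of Gkn1, Gkn2, Tff1 and Muc5ac held in every alternative fit of both comparisons, scalings included, while that of Muc1 in WT mice turned when libraries were scaled to 5 general epithelial genes (-0.018). Those 5 genes had positive log2 values themselves in WT-A against WT-S (median 0.25, 2 called higher and 0 lower by edgeR: Epcam and Krt18). In TTP-A against WT-A 2 of them, Krt8 and Krt18, were called lower (median -0.31). In the 14 libraries 2 were called higher in WT-A against WT-S (median 0.0998), and 0 lower in TTP-A against WT-A (median -0.21). The count called lower in TTP-A against WT-A was 0 to 3 when 1 library was left out. Values under this scaling are thus relative to genes whose own differences between groups varied with the fit. In bulk tissue, fewer surface mucous cells and less of a transcript per cell cannot be told apart.

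The gastrokines Gkn1 and Gkn2 are small secreted proteins of the surface mucus. Gkn1 (ENSMUSG00000030050) lies on chromosome 6 at 87345650-87350942 on the minus strand of GRCm38, and Gkn2 (ENSMUSG00000030049) at 87373357-87379497 on the plus strand. Both are protein-coding genes of 6 exons. Their starts are 22415 bp apart with the genes pointing away from each other, and Gkn3, a further gastrokine gene, ends 3759 bp beyond Gkn2 on the minus strand. The 250 bases before the RefSeq start are shown for these neighbours, since Gkn1 and Gkn2 moved together across libraries and the log2 values of Gkn3 had the opposite sign, without a call by edgeR or DESeq2, and for Muc1, the member with the opposite sign. The windows are from RefSeq for GRCm38.p6, where 3 of the 5 members were matched, and are written 5′ to 3′ on the strand of the gene. Capitals mark GATAAG, the letters bound by GATA factors, on either strand (CTTATC on the other), and TATAAA, the letters of a TATA box.
Gkn1 (chr6:87350916-87351165, minus strand): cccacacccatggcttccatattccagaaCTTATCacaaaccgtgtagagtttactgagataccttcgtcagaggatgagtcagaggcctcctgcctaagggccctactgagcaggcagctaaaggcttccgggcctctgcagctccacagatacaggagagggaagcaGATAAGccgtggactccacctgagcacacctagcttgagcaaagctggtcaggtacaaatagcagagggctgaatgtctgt
Gkn2 (chr6:87373115-87373364, plus strand): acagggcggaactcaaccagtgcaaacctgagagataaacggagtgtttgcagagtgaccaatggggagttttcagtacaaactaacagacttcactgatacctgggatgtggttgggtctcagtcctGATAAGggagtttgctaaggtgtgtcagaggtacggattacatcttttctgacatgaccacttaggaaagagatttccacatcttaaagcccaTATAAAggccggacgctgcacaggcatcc
Gkn3 (chr6:87388936-87389185, minus strand): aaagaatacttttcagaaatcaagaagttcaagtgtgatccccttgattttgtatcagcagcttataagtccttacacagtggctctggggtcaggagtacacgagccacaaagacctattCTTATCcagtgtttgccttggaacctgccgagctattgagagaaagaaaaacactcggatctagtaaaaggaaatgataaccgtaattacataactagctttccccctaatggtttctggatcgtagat
Muc1 (chr3:89228806-89229055, plus strand): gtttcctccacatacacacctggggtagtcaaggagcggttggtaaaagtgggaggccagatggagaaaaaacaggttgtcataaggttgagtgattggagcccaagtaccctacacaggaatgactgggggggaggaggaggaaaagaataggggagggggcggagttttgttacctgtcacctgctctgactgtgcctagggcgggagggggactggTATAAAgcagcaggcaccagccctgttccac
GATAAG on either strand was present in all 3 gastrokine windows, at 221 and 81 bases before the start in Gkn1, 122 in Gkn2 and 129 in Gkn3. It was present in 6.42% of 32536 promoter windows of this length. TATAAA was searched on both strands and lay 29 bases before the start in Gkn2 and 31 in Muc1, against 12.3% of all windows. No match of one motif overlapped one of the other. The letters GTAAACA (forkhead factors), TTCNNNGAA (STAT factors) and AGAACA (part of a glucocorticoid receptor element) were also searched on both strands. They were in none of the 4 windows, and in 3.17%, 7.04% and 16.03% of all windows. A match is a description of letters only.

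Gkn1 varied little among the S libraries. In libraries 1 to 4 it was at 22996, 23177, 22582 and 22930 CPM in WT-S and at 18249, 14842, 19291 and 21007 CPM in WT-A. Every WT-A library was below every WT-S library, with WT-A 4 closest and WT-A 2 farthest. The log2 difference was -0.32 (SE 0.12, 95% interval -0.58 to -0.059) and was not called by edgeR (adjusted p = 0.0766). In the 14 libraries it was -0.47 (adjusted p = 0.0497), and without WT-A 4 it was -0.39 (adjusted p = 0.0492). Over the 8 fits without 1 library it ran from -0.39 to -0.23, with the highest edgeR adjusted p without WT-A 2 (0.178). With the squamous level as a covariate it was -0.23 (edgeR adjusted p = 0.314). In TTPΔARE mice Gkn1 was at 22189, 21087, 20896 and 22164 CPM in TTP-S and at 12937, 20889, 17164 and 14919 CPM in TTP-A. The groups did not overlap, but TTP-A 2 lay just under the lowest TTP-S library. The log2 difference of -0.39 (SE 0.12, 95% interval -0.65 to -0.13) was not called by edgeR (adjusted p = 0.104).

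Gkn2 had the same order of libraries as Gkn1 in TTP-A and WT-A, but not in the S groups. It was at 18396, 18919, 16270 and 20866 CPM in WT-S and at 14597, 12366, 15005 and 16586 CPM in WT-A, where WT-A 4 lay above WT-S 3 and the groups overlapped. The log2 difference of -0.35 (SE 0.15) was not called by edgeR (adjusted p = 0.108; in the 14 libraries -0.47, adjusted p = 0.120). In TTP-S it was at 19369, 18820, 18483 and 19736 CPM, and in TTP-A at 9712, 18442, 13473 and 11679 CPM. Again TTP-A 2 stood just under the lowest TTP-S library and the other TTP-A libraries well below. The difference was -0.52 (SE 0.15, 95% interval -0.84 to -0.20), which was not called either (edgeR adjusted p = 0.0739).

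Tff1, the trefoil peptide of surface mucous cells, lies on chromosome 17 at 31161395-31165277 on the minus strand. It was at 8740, 8290, 8892 and 9531 CPM in WT-S and at 5768, 5626, 7598 and 10100 CPM in WT-A. WT-A 4 was higher than every WT-S library and the other WT-A libraries were lower, so the groups overlapped. The log2 difference was -0.29 (SE 0.17, edgeR adjusted p = 0.242). It was -0.64 in the 14 libraries (adjusted p = 0.0220) and -0.49 without WT-A 4 (adjusted p = 0.0422). The 8 fits without 1 library gave -0.49 to -0.18, with the highest edgeR adjusted p without WT-A 2 (0.475). With the squamous level as a covariate the difference was -0.21 (edgeR adjusted p = 0.516). In TTPΔARE mice Tff1 was at 9223, 8488, 8939 and 9580 CPM in TTP-S and at 4645, 8260, 6189 and 5628 CPM in TTP-A, without overlap. The difference of -0.55 (SE 0.17, 95% interval -0.92 to -0.18) was not called by edgeR (adjusted p = 0.102), but was in the 14 libraries, which hold all 8 of these (adjusted p = 0.0217).

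Muc5ac, the gel-forming mucin of the surface, lies on chromosome 7 at 141788972-141819231 on the plus strand, and its longest transcript has 49 exons and 10752 bases. It was at 3464, 6037, 4916 and 7205 CPM in WT-S and at 3212, 3584, 4055 and 3924 CPM in WT-A. WT-S 1 was within the range of WT-A and the other WT-S libraries were above it. The log2 difference of -0.55 (SE 0.22, 95% interval -1.01 to -0.085) was not called by edgeR (adjusted p = 0.0858), nor in the 14 libraries (-0.67, adjusted p = 0.142). Without WT-S 1 it was -0.71 and was called (adjusted p = 0.0257). Values over the 8 fits without 1 library ran from -0.71 to -0.38, with the highest edgeR adjusted p without WT-S 4 (0.252).

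In TTPΔARE mice Muc5ac was at 6173, 7709, 7506 and 8583 CPM in TTP-S and at 2523, 5299, 3769 and 2939 CPM in TTP-A. All TTP-A libraries were below all TTP-S libraries, with TTP-A 2 again the highest of its group. Muc5ac fell by a log2 of 1.04 (SE 0.22, 95% interval -1.51 to -0.58), to 0.485 of its TTP-S level (edgeR adjusted p = 0.0228; in the 14 libraries adjusted p = 0.0169). The call held in the 10 alternatives that kept all libraries of both groups (adjusted p from 0.000136 to 0.0303). Dropping single libraries ended it in 6 of 8 fits, namely without TTP-A 1, TTP-A 3, TTP-A 4, TTP-S 2, TTP-S 3 or TTP-S 4, with log2 values over all 8 fits from -1.28 to -0.90 and the highest adjusted p without TTP-A 1 (0.0919).

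Some markers of other cell types were called between TTP-A and TTP-S, where edgeR called 1.35% of all genes lower and 1.55% higher. Of 4 adipose markers, all detected, 2 were called lower and 0 higher by edgeR, Fabp4 (log2 -0.68, adjusted p = 0.0208) and Cfd (-1.45, adjusted p = 0.0417), with a median log2 of -0.92. Their sum was 195 to 312 CPM among TTP-S and 101 to 152 CPM among TTP-A libraries, without overlap. That count was 3 in the 14 libraries, 1 without TTP-S 1 or TTP-S 3 and with the replicate block, and 0 without TTP-A 1, TTP-A 3, TTP-A 4, TTP-S 2 or TTP-S 4. Of 5 chief cell markers 1 was called higher, Bhlha15, a factor of secretory cell maturation (0.66, edgeR adjusted p = 0.0390), and 0 lower. The unadjusted edgeR p was under 0.05 for 3 of the 5. The count of called chief markers was 0 in 6 of the 8 fits without 1 library, all but those without TTP-A 2 or TTP-S 1. It was also 0 with the replicate block. Parietal, squamous and smooth muscle markers gave 0 calls by edgeR and DESeq2, with an unadjusted p under 0.05 in 1 of 6, 0 of 9 and 1 of 5, and voom called 1 parietal marker lower and 1 smooth muscle marker higher. All 6 parietal log2 values were negative, and 2 of the 6 were lower without overlap, against 6.77% of all genes. The part of these cells in the fall of Muc5ac was not tested.

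Muc1 lies on chromosome 3 at 89229057-89233381 on the plus strand. It was at 1555, 1252, 1463 and 1358 CPM in WT-S and at 1837, 1496, 1616 and 1415 CPM in WT-A. In TTPΔARE mice it was at 1242, 1441, 1330 and 1438 CPM in TTP-S and at 1647, 1386, 1538 and 1605 CPM in TTP-A. The groups overlapped in both genotypes, with 1 library of TTP-A inside the TTP-S range. The log2 differences were 0.18 in both genotypes (SE 0.089 in each), with edgeR adjusted p-values of 0.158 (WT) and 0.342 (TTPΔARE). In the 14 libraries the WT value was 0.24 (adjusted p = 0.134).

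**Figure D2:**
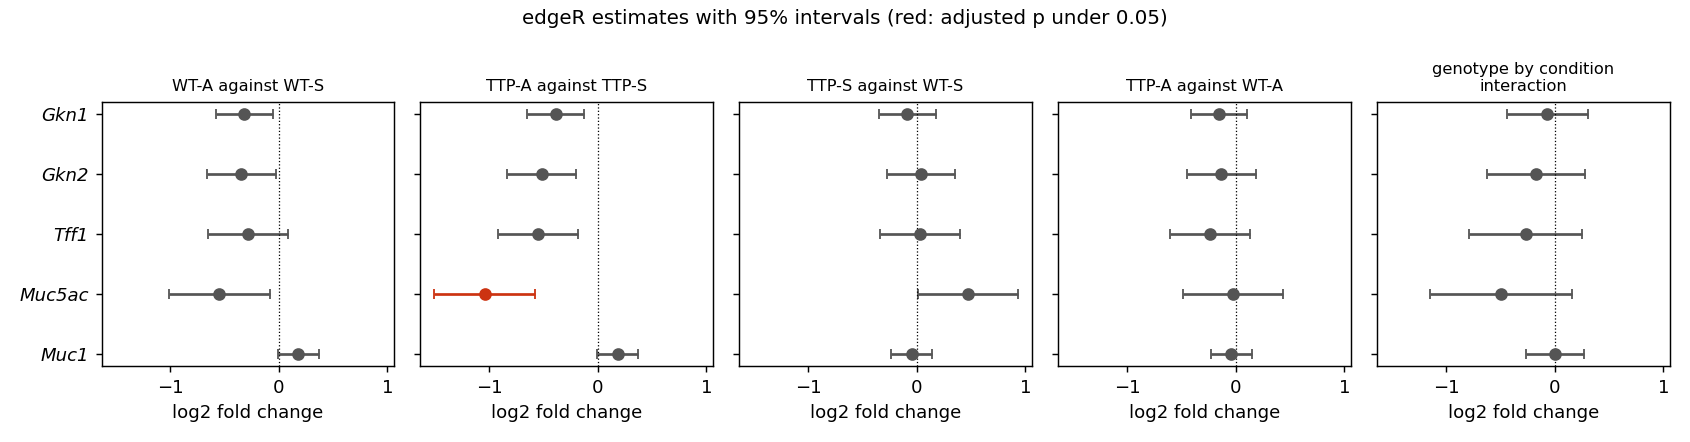
Log2 fold changes of the 5 genes from edgeR (points) with 95% intervals (bars) in the 4 pairwise comparisons and the interaction, with the adjusted p under 0.05 in red. The single red point is Muc5ac in TTP-A against TTP-S, at -1.04.

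Genotype made no called difference to any member. Between TTP-S and WT-S edgeR called 0 of 5 (background 0.0325% of all genes), with 1 at an unadjusted p under 0.05, and the DESeq2 Wald test (background 0.637%) and voom (1.14%) also called 0. That member was Muc5ac, which stood at 7493 ± 996 CPM in TTP-S and 5405 ± 1596 CPM in WT-S (SD, n = 4). Its log2 difference was 0.47 (SE 0.22, 95% interval 0.0068 to 0.94, edgeR adjusted p = 0.655), and the groups overlapped. Gkn1 was lower in every TTP-S library than in any WT-S library, with a log2 difference of -0.087 (edgeR adjusted p = 0.979), where 3.24% of all genes were lower without overlap. The remaining members differed by -0.046 (Muc1) to 0.037 (Gkn2).

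Between TTP-A and WT-A edgeR, DESeq2 and voom each called 0 of 5 members, where edgeR called 5.17% of all genes, DESeq2 11.5% and voom 5.17%, and 0 had an unadjusted p under 0.05. All 5 log2 values were negative in 16 libraries, from -0.23 (Tff1, 95% interval -0.60 to 0.13) to -0.024 (Muc5ac, 95% interval -0.49 to 0.44). Without the WT-A pair set apart by GC content Tff1 (0.12) and Muc5ac (0.096) changed sign, Gkn1 was at -0.0059, Gkn2 at -0.017 and Muc1 at -0.11, and after scaling to epithelial genes all 5 did. The interaction of genotype and condition, the difference between the 2 responses to A, was -0.50 for Muc5ac (SE 0.31, 95% interval -1.15 to 0.16, edgeR adjusted p = 0.434). It was -0.37 in the 14 libraries and -0.19 after scaling to epithelial genes, where Muc1 (0.28) and Gkn1 (0.23) had larger ones. No member had a called interaction by edgeR, DESeq2 or voom (backgrounds 0.0585%, 2.11% and 1.11%), 0 had an unadjusted p under 0.05, and intervals reached from -1.15 to 0.30 over the 5. The larger fall of Muc5ac in TTPΔARE mice was therefore not shown to differ from that in WT mice.

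Levels relative to Gkn1 within the same library, which no scaling can alter, are given next, without a test. Gkn1 itself was lower in every A library than in any S library of the same genotype (log2 -0.32 in WT and -0.39 in TTPΔARE mice). A ratio can therefore rise without a rise of the gene. How many of all genes separate the groups by such a ratio was not counted. Muc5ac was at 0.348 ± 0.0478 of Gkn1 in TTP-S against 0.236 ± 0.0691 in WT-S, and the A groups were at 0.204 ± 0.0290 (WT) and 0.216 ± 0.0273 (TTPΔARE). The lowest TTP-S library (0.278) was above every A library (highest 0.254). Tff1 had group means of 0.373 to 0.420, and its TTP-S libraries (0.403 to 0.432) were also all above those of TTP-A (0.359 to 0.395). Gkn2 had group means of 0.800 to 0.885, with TTP-S and TTP-A overlapping. The Gkn2 ratio in TTP-S varied least, at 0.885 ± 0.00879. Muc1 was at 0.0614 ± 0.00603 of Gkn1 in WT-S and 0.0881 ± 0.0160 in WT-A, and at 0.0632 ± 0.00520 in TTP-S and 0.0977 ± 0.0260 in TTP-A. The level of Muc1 itself differed by a log2 of only 0.18 in both genotypes, not called by edgeR.

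Within groups Gkn1, Gkn2 and Tff1 rose and fell together from library to library. As deviations of log2 CPM from the group mean over 16 libraries, Gkn1 and Gkn2 had a Pearson r of 0.93 (Spearman rho 0.88), with a permutation p of 4e-05, adjusted to 0.0004 over the 10 pairs of members. Without TTP-A 1 and TTP-A 2, the libraries farthest from the median, r was 0.82. Gkn1 and Tff1 had an r of 0.88 (rho 0.79, permutation p = 0.00415, adjusted 0.0138), and 0.80 without the same 2 libraries. Gkn2 and Tff1 had an r of 0.82 (rho 0.84, permutation p = 0.00151, adjusted 0.00755), and 0.69 without them. In the 14 libraries these 3 pairs passed by Pearson's r, but by rank only Gkn1 with Gkn2 did (adjusted permutation p = 0.0465, against 0.102 for both pairs with Tff1). Without TTP-A 1 and TTP-A 2 as well, r was 0.72 for Gkn1 with Gkn2, 0.45 for Gkn1 with Tff1 and 0.55 for Gkn2 with Tff1.

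Muc5ac was tied to the other 3 less closely. Its r was 0.72 with Gkn2 (rho 0.73, permutation p = 0.0140, adjusted 0.0279), 0.58 with Tff1 (rho 0.63, permutation p = 0.00831, adjusted 0.0208) and 0.59 with Gkn1 (rho 0.51, permutation p = 0.0274, adjusted 0.0457). The relation with Gkn1 rested on TTP-A 1 and TTP-A 2, without which r was 0.20, and that with Gkn2 was 0.46 without them. In the 14 libraries none of these 3 passed (adjusted permutation p = 0.113 with Gkn1, 0.0626 with Gkn2 and 0.0626 with Tff1). Muc1 had negative r with all 4, from -0.38 to -0.54, and none passed (adjusted permutation p from 0.0560 to 0.214).

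**Figure D3:**
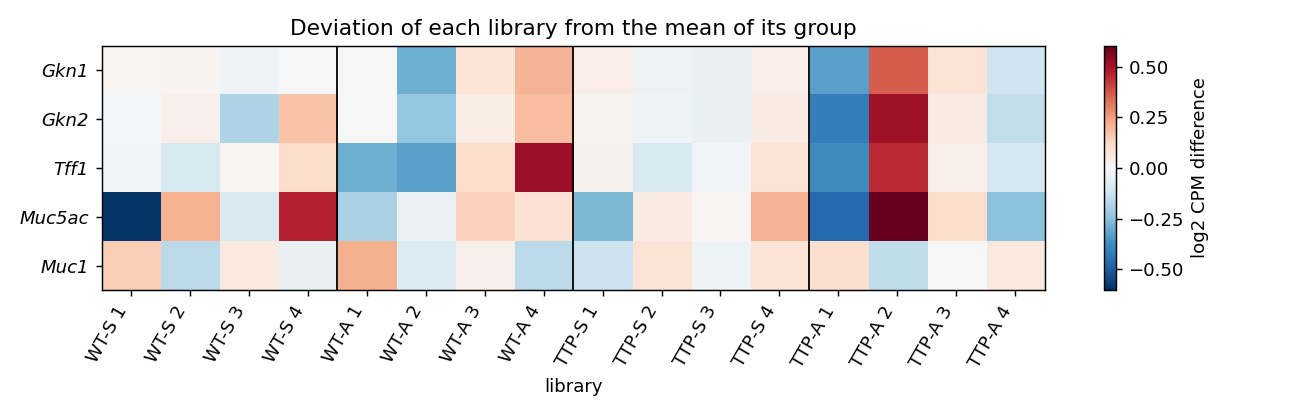
Difference of each library from the mean of its group in log2 CPM (colour) for the 5 genes (rows) in 16 libraries (columns, groups divided by lines). TTP-A 2 is above and TTP-A 1 below its group mean in Gkn1, Gkn2, Tff1 and Muc5ac, and Muc1 has the opposite sign in both; WT-S 1 is low in Muc5ac (-0.59) and near 0 in Gkn1 (0.0047).

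WT-S 1 and TTP-A 1 were the libraries with the lowest Muc5ac of their groups, and both were the highest of their groups in Muc6. WT-A 1 and TTP-S 1 were the lowest of their groups in Muc5ac (3212 and 6173 CPM) and also in Muc6 (1560 and 271 CPM). Muc6 was at 2358, 464, 544 and 779 CPM in WT-S and at 3277, 617, 1168 and 1963 CPM in TTP-A. The 8 markers of mucous neck and SPEM cells, all of them detected, summed to 3368 CPM in WT-S 1 against 1119 to 1656 CPM in the other WT-S libraries. In TTP-A they summed to 4195 CPM in TTP-A 1 and to 1637 CPM in TTP-A 2, the library with the highest Muc5ac of its group. They summed to 2791 to 3117 CPM in WT-A and to 1164 to 1504 CPM in TTP-S. Every TTP-S library was below every TTP-A library in this sum, although the S label names SPEM. The other 7 markers summed to 892 to 1044 CPM (TTP-S) and 756 to 1020 CPM (TTP-A, with TTP-A 1 at 917 CPM), and to 655 to 1010 CPM in WT-S and 1216 to 1267 CPM in WT-A. Single markers differed in direction: 6 of the 8 had positive log2 values for TTP-A against TTP-S, and edgeR called 2 higher and 0 lower (2 higher by DESeq2, and 4 higher and 1 lower by voom), where edgeR called 1.55% of all genes higher. The calls were Muc6 and Gpx2, a glutathione peroxidase (means 86.4 CPM for TTP-S and 153 CPM for TTP-A, log2 0.83, edgeR adjusted p = 0.0369), and both were lost in 7 of the 8 fits without 1 library. Tff2 (log2 -0.20, edgeR adjusted p = 0.649) and Dmbt1 (-0.61, edgeR adjusted p = 0.188), which made up most of the sum of 7 in both of these groups, had negative values and were not called. Within groups the mean log2 level of these markers had an r of -0.70 with Muc5ac (rho -0.64, permutation p = 0.0446) and 0.52 with Muc1 (rho 0.56, permutation p = 0.0580). Both had an adjusted permutation p of 0.193 over 10 relations, which were chosen after values were seen, and without WT-S 1 and TTP-A 1 the r with Muc5ac was -0.39. The squamous markers had r of -0.34 to -0.079 with the 5 members (adjusted permutation p from 0.554 to 0.808). The part of other cell types in the differences between groups was not tested.

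**Figure D4:**
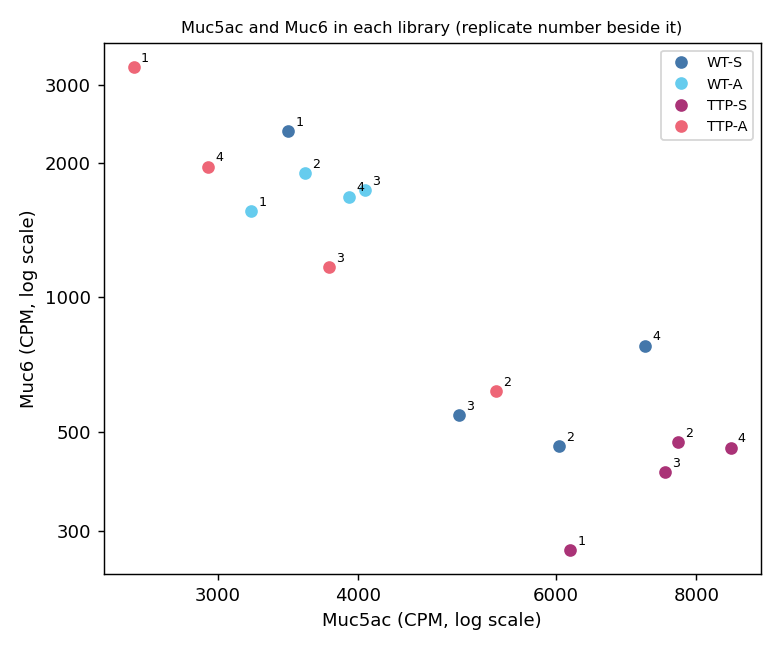
Muc5ac (x axis) and Muc6 (y axis) in CPM on log scales, 1 point per library, coloured by group, with the replicate number beside it. WT-S 1 lies among the A libraries with 3464 CPM of Muc5ac and 2358 CPM of Muc6, and TTP-A 2 lies near WT-S with 5299 and 617 CPM.

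Among other genes of surface mucous cells some were lower in WT-A as well. Of 9 further surface genes, all tested, 4 were called lower by edgeR in WT-A and 0 higher, with a median log2 of -0.31, where 8.99% of all genes were called lower. Dpcr1, which encodes a mucin-like membrane protein, was at 15349, 15271, 15322 and 16104 CPM in WT-S and at 10390, 10229, 10353 and 11048 CPM in WT-A. The groups were far apart compared with the spread inside each, and Dpcr1 fell by a log2 of 0.56 (SE 0.12, edgeR adjusted p = 0.00747; in the 14 libraries adjusted p = 0.0288), a call that held in all 8 fits without 1 library. Sult1c2, a sulfotransferase, fell by 0.34 (edgeR adjusted p = 0.00550) and also held in all 8. Slc26a9, a chloride and bicarbonate transporter of surface cells, fell by 0.44 (edgeR adjusted p = 0.0167), which was lost without WT-S 2 (-0.37, adjusted p = 0.0646). Capn8, a calpain protease of the stomach, fell by 0.31 (edgeR adjusted p = 0.0327), which was lost in 6 of the 8 (highest adjusted p = 0.0895 without WT-S 4). With the squamous level as a covariate 1 of these 4 stayed called, Sult1c2; in a fit of WT-A and WT-S alone 2 did, Dpcr1 and Slc26a9. In the 14 libraries Sult1c2 (-0.23, adjusted p = 0.0402), Slc26a9 (-0.60, adjusted p = 0.00918) and Capn8 (-0.41, adjusted p = 0.0251) were also called. Markers of other cell types moved in the same comparison. Of 5 chief cell markers 3 were called lower and 1 higher, of 6 parietal cell markers 2 lower and 0 higher, of 5 smooth muscle markers 4 higher and 0 lower, and of 8 neck and SPEM markers 3 higher and 0 lower, where 9.80% of all genes were called higher. Of 9 tested squamous markers 2 were called higher and 0 lower, and their sum was 1.57 to 196 CPM in WT-S and 47.4 to 779 CPM in WT-A. In the 14 libraries the calls were 4 lower and 1 higher (chief), 4 lower (parietal), 1 higher (smooth muscle), 4 higher (neck and SPEM) and 3 higher (squamous). Single libraries moved these counts: smooth muscle fell to 1 without WT-A 3 or WT-S 2 and to 2 without WT-A 4 or WT-S 3, parietal came to 5 without WT-A 4, and neck and SPEM to 6 without WT-S 1. Of squamous markers 6 were called when WT-A 1 was left out, 4 when WT-A 4 was, 1 when WT-S 1 was, and 0 when WT-A 2 or WT-S 2 was. The sums were 78541 to 153333 CPM in WT-S and 48974 to 103671 CPM in WT-A for chief cells, 17257 to 20808 and 14351 to 21669 CPM for parietal cells, and 5738 to 6552 and 6768 to 8276 CPM for smooth muscle. Their part in the lower surface mucous values was not tested.

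In TTPΔARE mice 0 of these 9 genes were called by edgeR between TTP-A and TTP-S, with a median log2 of -0.16. The unadjusted p was under 0.05 for 3 of them, and DESeq2 called 2 lower and voom 4. Dpcr1 was at 16051, 16953, 17270 and 17941 CPM in TTP-S and at 9970, 17064, 13654 and 10956 CPM in TTP-A. TTP-A 2 was inside the TTP-S range and the other TTP-A libraries were below it (log2 -0.40, SE 0.12, edgeR adjusted p = 0.0889). Psca, a surface protein of pit cells, had a log2 of -0.39 in the WT comparison and -0.48 in the TTPΔARE one, with edgeR adjusted p-values of 0.0921 and 0.122. Of the related secreted peptides Gkn3, Tff2 and Tff3, 0 were called in either genotype by edgeR or the DESeq2 Wald test. In WT mice 2 had an unadjusted p under 0.05 and voom called 1 higher, and in TTPΔARE mice 0 did and voom called 1 lower. Gkn3, at 25.03 to 225 CPM, had a log2 of 1.09 (WT) and 0.66 (TTPΔARE), with edgeR adjusted p-values of 0.107 and 0.581, opposite in sign to Gkn1 and Gkn2 beside it on the chromosome.

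Mucins other than Muc5ac and Muc1 gave 1 edgeR call in each genotype, out of 7 tested of 10 listed (Muc3, Muc3a and Muc16 were not matched by symbol). Of all genes 18.8% were called in WT and 2.90% in TTPΔARE mice. DESeq2 also called 1 higher in each genotype, and voom 1 higher in WT and 2 higher and 2 lower in TTPΔARE mice. With the squamous level as a covariate 0 were called higher and 1 lower in WT mice. Muc4, a membrane mucin, rose in WT-A by a log2 of 1.68 (SE 0.39, edgeR adjusted p = 0.0102), from 88.2, 18.9, 38.7 and 42.9 CPM in WT-S to 224, 180, 133 and 62.7 CPM in WT-A. The groups overlapped through WT-S 1 and WT-A 4. The call held in the 14 libraries (2.11, adjusted p = 0.00456) and in all 8 fits without 1 library, but neither with the squamous level as a covariate nor in a fit of WT-A and WT-S alone. Muc6, the neck cell mucin, rose in TTP-A by 2.13 (SE 0.50, edgeR adjusted p = 0.0352), from 271 to 474 CPM in TTP-S to 617 to 3277 CPM in TTP-A. That call was lost in 7 of the 8 fits (highest adjusted p = 0.150 without TTP-A 1, log2 1.63) and with the replicate number as a block (1.85, adjusted p = 0.0525). Muc5ac and Muc6 thus moved in opposite directions in TTPΔARE mice. In WT mice Muc6 had a log2 of 0.73 (edgeR adjusted p = 0.278).

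**Figure D5:**
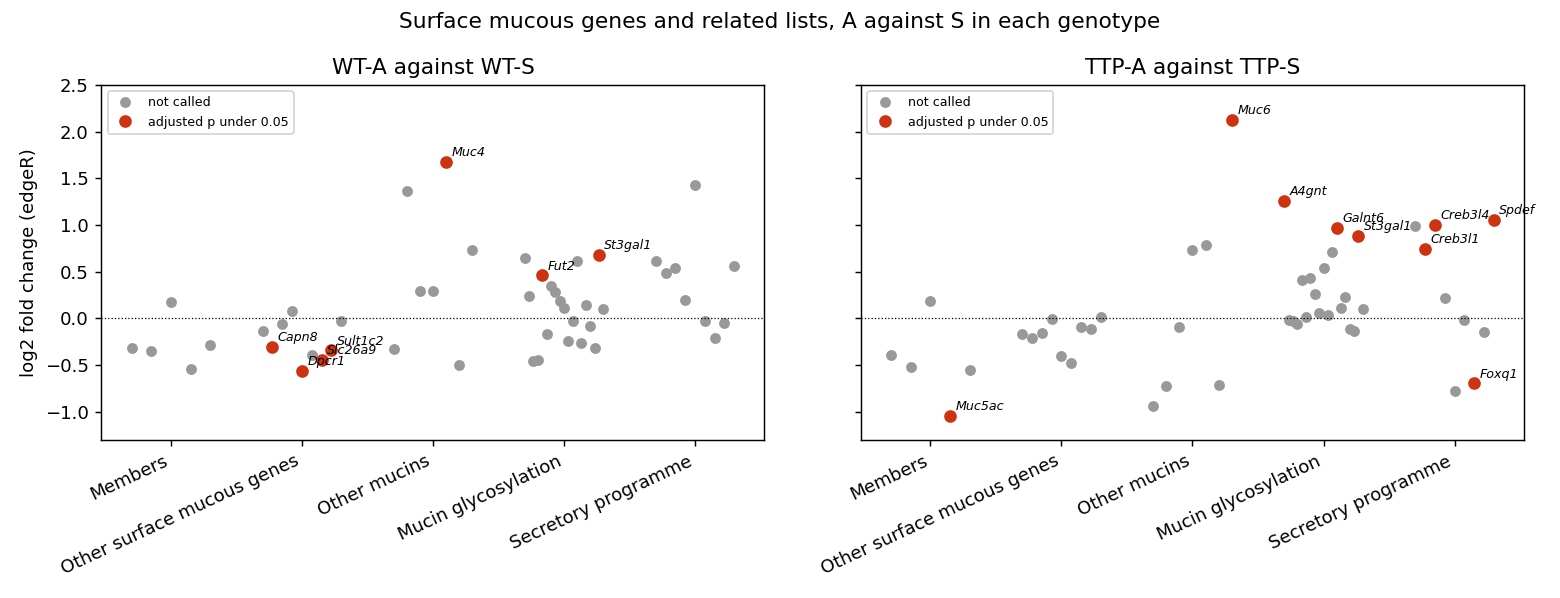
Log2 fold changes of the members and 4 related gene lists for A against S in WT (left) and TTPΔARE mice (right), 1 point per tested gene, with edgeR calls in red and named. In WT mice the 4 red points of the other surface mucous genes lie below 0; in TTPΔARE mice Muc5ac (-1.04) and Foxq1 (-0.70) are the red points below 0.

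Of 21 listed enzymes that build the O-linked sugars of mucins 19 were tested. Between A and S edgeR called 2 higher in WT mice, a share close to the 9.80% of all genes called higher there, and 3 higher in TTPΔARE mice, against 1.55% of all genes, with 0 called lower in both. The direction in WT mice depended on the fit: 1 was called higher and 3 lower after scaling to epithelial genes, 3 and 5 without WT-A 1, 3 and 2 without WT-A 2, and 7 and 0 without WT-S 1. The calls between WT-A and WT-S were Fut2, the fucosyltransferase of surface mucus (log2 0.46, adjusted p = 0.0331), and St3gal1, a sialyltransferase (0.68, adjusted p = 0.0161). Those between TTP-A and TTP-S were A4gnt, which makes the terminal sugar of neck cell mucin (1.26, adjusted p = 0.0400), Galnt6, which starts sugar chains (0.97, adjusted p = 0.0297), and St3gal1 (0.88, adjusted p = 0.0182). The median log2 of the list was 0.11 in both genotypes. Leaving out WT-S 2 ended both calls in WT mice (adjusted p = 0.0987 and 0.0527), and leaving out TTP-A 1 ended all 3 in TTPΔARE mice (adjusted p = 0.164, 0.130 and 0.0777). Of the 8 fits without 1 library, A4gnt and Galnt6 were each lost in 7 and St3gal1 in 4 in TTPΔARE mice, and Fut2 was lost in 4 and St3gal1 in 2 in WT mice. Fut2 was also lost in the 14 libraries (adjusted p = 0.0707) while St3gal1 was called (0.70, adjusted p = 0.0459), and neither WT call held with the squamous level as a covariate or in a fit of WT-A and WT-S alone. Between TTP-A and WT-A B3gnt3, which extends core sugar chains, was called lower (log2 -0.32, edgeR adjusted p = 0.0468). This call was lost in 7 of 10 alternatives, the 14 libraries among them (adjusted p = 0.103), and in 6 of the 8 fits without 1 library.

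The 9 genes of the secretory and mucous programme, all tested, had 0 edgeR calls between WT-A and WT-S (3 had an unadjusted p under 0.05, DESeq2 called 1 higher, voom and the fit without WT-S 1 each called 4 higher, and scaling to epithelial genes gave 2 lower). Between TTP-A and TTP-S edgeR called 4 of the 9. Over all genes the shares called were 18.8% and 2.90%. Foxq1, a forkhead factor that drives Muc5ac in surface mucous cells, was at 250, 219, 253 and 246 CPM in TTP-S and at 128, 195, 145 and 130 CPM in TTP-A. The groups did not overlap, and TTP-A 2 was the highest of its group, as for Muc5ac. Foxq1 fell by a log2 of 0.70 (SE 0.14, edgeR adjusted p = 0.0198), and the call was lost in 5 of the 8 fits without 1 library (highest adjusted p = 0.0896 without TTP-A 1). In WT mice its log2 was -0.21 (edgeR adjusted p = 0.297).

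The other 3 calls of this list were in the higher direction. Spdef, a factor of mucous and goblet cell maturation, rose by 1.06 in TTP-A (edgeR adjusted p = 0.0448). The secretory factors Creb3l4 and Creb3l1 rose by 1.001 (adjusted p = 0.0295) and 0.75 (adjusted p = 0.0365). TTP-A 1 had the highest value of its group in all 3 (146, 75.6 and 405 CPM) and TTP-A 2 the lowest (61.4, 39.4 and 223 CPM). Without TTP-A 1 none of the 3 was called (adjusted p = 0.185, 0.126 and 0.151), and each was lost in 6 or 7 of the 8 fits without 1 library. In all 3 the order of the TTP-A libraries was the reverse of that in Foxq1 and Muc5ac.

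Genes whose libraries deviated from their group means most like each member were drawn from 11155 genes with a mean CPM of at least 5. The points share libraries and depth, so the r values over 16 libraries are a description. For Gkn1 they were Gkn2 (0.93), Gsto1 (0.93), Grtp1 (0.90), Lgals2 (0.90) and Ptprr (0.89). For Gkn2 they were Gsta4 (0.94), Gkn1 (0.93), Grtp1 (0.90), Sod1 (0.90) and Atpif1 (0.90). For Tff1 Vsig2 (0.96), Mgst3 (0.95), Ndufa10 (0.94), Taldo1 (0.94) and Pop5 (0.94) led. The Muc5ac list shared none of these, with Nrgn (0.93), Afmid (0.93), Slc5a5 (0.92), C530008M17Rik (0.92) and Tex2 (0.91). Nearest to Muc1 were Gata5 (0.92), B4galt1 (0.91), B3gnt3 (0.91), Epb41 (0.90) and Dgkd (0.90), of which B4galt1 and B3gnt3 are glycosyltransferases.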

How the data were processed

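RNA sequencing libraries (TruSeq, from RNA extracted in TRIzol, per the labels' protocols) were compared through 1 table in which the authors deposited raw read counts for each gene symbol. Reads were handled with STAR 2.7.0f, featureCounts and Subread 1.6.4 on mm10, and DESeq2 was used, per the submitters' processing notes. Which annotation, strand setting or filter was used is not given in the sources used here, so reads of overlapping genes could be shared.

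Groups and replicate numbers came from the sample titles. The labels do not say whether libraries of a group came from separate animals, so p-values measure only the spread between these samples. All 24 within-group pairs differed beyond counting noise (chi-square over its degrees of freedom 4.69 to 89.5), and each library was used as 1 replicate.

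Counts were analysed with edgeR 4.0.16 in R 4.3.3: filterByExpr, scaling by the trimmed mean of M-values, and a quasi-likelihood fit over 16 libraries with a mean for each group. P-values were adjusted over all 15385 genes. CPM uses the scaled library totals, and log2 CPM a prior count of 2. Relations between genes were tested with 100000 two-sided permutations within groups. The fit was also run on counts simulated from edgeR's own estimates, without a GC trend or outlying libraries. That run does not bear on the calls reported here. Coordinates, transcripts and GC content came from GENCODE M21 on GRCm38, of which mm10 is the browser name, and promoters from RefSeq.

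Alternatives were DESeq2 1.42.0 size factors and its Wald test, limma 3.58.1 voom with sample weights, other filters, only the groups compared, a replicate block, 14 libraries, scaling to 5 epithelial genes, a squamous covariate, and leaving out each library. The members and gene lists were chosen with earlier results of these data known. Genes named from the lists are the called ones, at most 5 a list and comparison, and otherwise were chosen after their values were seen. The likeness rule took the 5 highest r for each member.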

Additional observations from a re-analysis of the deposited data

How the results depend on the processing

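The lowest count of a member in any library was 26535, for Muc1. The count of members called between WT-A and WT-S was 0, and 1 with a replicate block, 2 in the 14 libraries, 4 with epithelial scaling, 2 by the DESeq2 Wald test, 3 by voom and 0 to 2 when 1 library was left out (2 without WT-A 4 and 1 without WT-S 1). Between TTP-A and TTP-S it was 1, and 2 in the 14 libraries, 4 by the DESeq2 Wald test, 5 by voom, 2 in a fit of only these groups and 0 to 4 when 1 library was left out (4 without TTP-A 2). The causes were not tested. The other 3 comparisons gave 0 in every fit.

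Same-numbered libraries of different groups were not more alike than others. Their median correlation of deviations was -0.063 (-0.43 to 0.44, 24 pairs), that of other pairs 0.018 (-0.48 to 0.47, 72 pairs), and 8 of 48 best matches were to the same number. These values cannot show whether same-numbered libraries shared a litter, day or batch. With the replicate block Muc5ac was also called between WT-A and WT-S (log2 -0.51, adjusted p = 0.0496), and the block changed no other call of a member.

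Epithelial scaling moved the median log2 of all genes to -0.20 (WT-A against WT-S), 0.080 (TTP-A against TTP-S), 0.24 (TTP-A against WT-A) and 0.29 (interaction). The split of higher against lower calls went from 1508 and 1383 to 441 and 4421, from 239 and 207 to 385 and 73, from 442 and 354 to 4859 and 48, and from 5 and 4 to 439 and 9. Under it, signs turned for Muc1 in WT-A against WT-S (-0.018), for Gkn2 (-0.0076) and Tff1 (-0.0087) in TTP-S against WT-S, for Gkn1 (0.098), Gkn2 (0.12), Tff1 (0.030), Muc5ac (0.22) and Muc1 (0.20) in TTP-A against WT-A, and for the interactions of Gkn1 (0.23), Gkn2 (0.12) and Tff1 (0.039). In the 14 libraries they turned for Tff1 (0.12) and Muc5ac (0.096) in TTP-A against WT-A and for the interactions of Gkn1 (0.081), Tff1 (0.086) and Muc1 (-0.064). The interaction of Gkn1 was 0.017 by voom. That of Muc1, 0.0031 as reported, was -5.56e-05 with no filter, -0.00039 with the stricter filter, -0.0031 with the replicate block and -0.024 with the squamous covariate.

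When 1 library was left out, signs turned where values were near 0: in TTP-S against WT-S for Gkn2 (-0.020 to 0.098), Tff1 (-0.00027 to 0.069) and Muc1 (-0.099 to 0.0052), in TTP-A against WT-A for Muc5ac (-0.27 to 0.12) and Muc1 (-0.095 to 0.033), and in the interaction for Gkn1 (-0.21 to 0.032) and Muc1 (-0.050 to 0.079). None of these was called in any of those fits. The within-group relation of Gkn1 with Muc5ac had an adjusted p of 0.0506 with DESeq2 size factors. Counts over all genes moved as well: the 2891 calls in WT mice ran from 631 to 4862 over the alternatives with no library of that comparison left out singly, and from 1254 to 4977 otherwise, and the 446 calls in TTPΔARE mice from 370 to 2346 and from 60 to 937.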

Other observations

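Since the TTPΔARE genotype concerns a protein that binds AU-rich elements, the letters TATTTAT were counted in the longest 3′ untranslated region among the coding GENCODE transcripts of each member. Gkn2 held 1 copy, and Gkn1, Tff1, Muc5ac and Muc1 held 0. These regions are short, from 182 bases in Tff1 to 625 in Gkn1. Of 13336 genes with a mean CPM of at least 1, 30.02% held the letters, and of the 3390 whose region was no longer than that of Gkn1, 8.32% did. The shorter letters ATTTA were present in Gkn1 (2 copies), Gkn2 (2) and Muc5ac (1), and absent from Tff1 and Muc1. They were in 70.4% of the 13336 genes and in 34.0% of the 3390. The log2 difference of Gkn2 between TTP-S and WT-S was 0.037 (SE 0.15, 95% interval -0.28 to 0.35, edgeR adjusted p = 0.998), and between TTP-A and WT-A -0.14 (95% interval -0.45 to 0.18, edgeR adjusted p = 0.568). A match describes letters and says nothing of binding.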
